A study of Mus musculus with 2 samples.

Results

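The genes described here encode the proteins of the cytosolic ribosome. They were taken from the 32285 deposited mouse genes by symbol, as names of the Rpl, Rps and Rplp series together with Rpsa. Names of pseudogenes and of the S6 kinases were left out, and at least 50 unique molecular identifiers (UMIs, each a captured molecule) over both libraries were required. Of 83 symbols that match, 82 had that many UMIs, and the remaining symbol, Rpl10l, had 0 UMIs in both libraries. No expression difference was used to choose them.

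The study profiled single Lineage- cKit+ cells of C57BL/6 femora and tibiae, a marrow fraction rich in blood stem and progenitor cells. Controls were Trsp f/f mice and knockouts Trsp f/f:Mx1-Cre mice, so both carried the floxed alleles of Trsp, the gene of the selenocysteine tRNA. Mice of both genotypes received pI-pC (polyinosinic-polycytidylic acid) at 500 µg per mouse, in 3 doses on alternating days. Mx1-Cre is switched on by interferon, which pI-pC induces, so Trsp deletion is not limited to blood cells. The series record places the injections 7 weeks after birth and sample preparation 9 weeks after the last injection. Cells were frozen and thawed before loading, and how many mice each library pools was not stated in what was read here. With 1 library per genotype, nothing below is replicated or tested, and every interval is an exact 95% interval that covers counting error only.

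A ribosome is built from ribosomal RNA and one set of these proteins, divided between a small subunit that reads the mRNA and a large subunit that joins amino acids. Most of their mRNAs begin with a tract of pyrimidines, the terminal oligopyrimidine (TOP) motif, through which mTOR and the RNA-binding protein LARP1 control their translation and stability together. In blood, loss of 1 functional copy of any of several of these genes causes Diamond-Blackfan anemia, a failure of red cell production, and unassembled Rpl5 and Rpl11 bind Mdm2 and so stabilize the tumor suppressor p53.

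The filters kept 8046 control and 6654 knockout cells, whose median depths were 20352 and 20763.5 UMIs. Under 5000 UMIs were found in 277 control cells (3.44%) and 1127 knockout cells (16.9%). The mRNAs of 4 selenoproteins, known from earlier results of these data, served as the check of the genotype labels, since Trsp was not analysed here. Counts-per-million (CPM, UMIs of a gene scaled to a common library total) were 1508 in control and 253 in knockout cells for Gpx1, 397 and 126 for Gpx4, 98.2 and 14.7 for Selenow and 303 and 29.9 for Selenoh. Xist had 15 and 17 UMIs, while the Y-linked Ddx3y was at 45.5 and 61.5 CPM. Cells were placed in gates by marker genes, and 7 gates with at least 100 cells in each library were compared. Marker levels were much higher inside the gates than over all kept cells, for example 527 against 47.5 CPM for Hlf in the control stem gate, 10044 against 3879 CPM for Elane in the control neutrophil progenitor gate and 226 against 7.68 CPM for Klf1 in the control early erythroid gate.

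Ribosomal protein mRNAs were a large and slightly smaller share of the captured molecules in the knockout library. Their summed UMIs were 30.4% of all UMIs in control cells and 28.4% in knockout cells, a log2 ratio of -0.10. Within cells, the median share was 30.7% in control and 28.2% in knockout cells. Proteins of the small subunit supplied 47.1% of the ribosomal protein UMIs in control cells and 46.9% in knockout cells, so the balance of the subunits differed by little.

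The share was lower in the knockout library in each of the 7 compared gates. It was highest in the neutrophil progenitor gate, at 32.5% in control and 30.7% in knockout cells, and lowest in the dendritic gate, at 22.2% and 20.9%. In the stem gate it was 26.9% and 25.4%, below every other compared gate except the dendritic one in both libraries. The multipotent or lymphoid-primed gate stood at 29.99% and 27.7%, and the monocyte progenitor gate at 30.7% and 28.4%. The basophil or mast gate stood at 28.9% and 27.0%. The early erythroid gate, the lineage that fails in Diamond-Blackfan anemia, went from 29.6% to 26.9%, and its log2 ratio of -0.14 (-0.140 to -0.133) was the lowest of the 7. The log2 ratio nearest 0 was that of the stem gate, at -0.08 (-0.085 to -0.077).

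**Figure D1:**
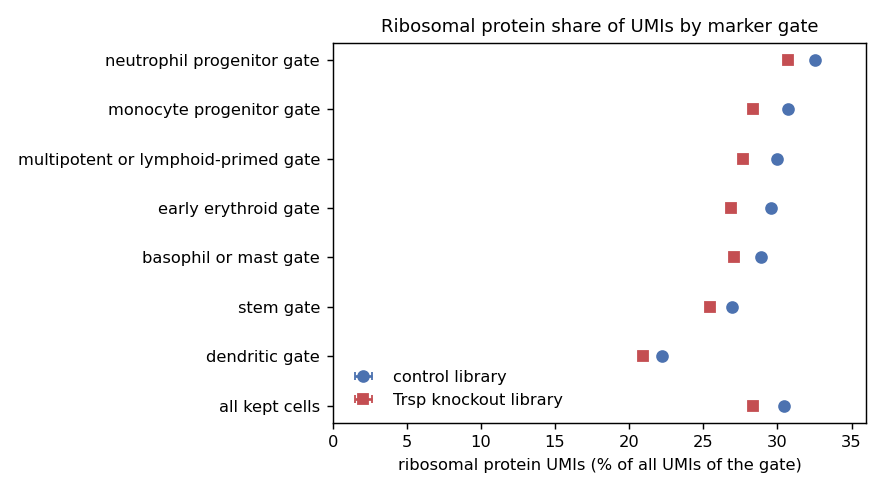
Ribosomal protein UMIs as a percent of all UMIs (horizontal axis) in each compared marker gate and in all kept cells (vertical axis), for the control library (circles) and the Trsp knockout library (squares), with exact binomial 95% intervals that are narrower than the symbols. The knockout value lies left of the control value in each gate shown, and the dendritic gate is lowest in both libraries, at 22.2% and 20.9%.

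Depth and mitochondrial RNA differed along with the share. Median UMIs per cell were higher in the knockout library in each compared gate, for example 24730 in control and 30945 in knockout cells of the monocyte progenitor gate and 26083.5 and 35800.5 in the early erythroid gate. Mitochondrially encoded genes made up 3.95% of all UMIs in control and 4.56% in knockout cells. As a share of the UMIs that are not mitochondrially encoded, the ribosomal protein log2 ratio was -0.09, and with only barcodes of at least 5000 UMIs it was -0.10. The part of depth within the gates was not tested. Barcodes that failed the filters held 12.6% ribosomal protein UMIs in the control file and 11.6% in the knockout file, and 19.85% and 19.97% of their UMIs that are not mitochondrially encoded. In barcodes that failed the filters the lower share was therefore present only while mitochondrial UMIs stayed in the total.

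Of the 82 genes, 80 reached 20 CPM in at least 1 library and are called measured. The paralogs Rpl3l and Rpl39l stayed below that level. In control cells Rpl7l1 was the lowest of the measured genes, at 104 CPM. Rps12 and Rpl13, chosen for their high level after it was seen, had 7788 and 7061 CPM and made up 2.56% and 2.32% of the control ribosomal protein UMIs. These levels count captured transcript ends and are not scaled by length.

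The median log2 ratio of the 80 genes, knockout over control, was -0.15, with an interquartile range from -0.19 to -0.05. The same median over all 6094 measured genes was 0.08. Of the 80, 65 had a ratio below 0, against 31.9% of all measured genes, and 15 had a ratio above 0, against 68.1%. Only Rpl35 and Rpl10 were at least 1.5-fold higher in the knockout library, against 1.02% of all measured genes, and 0 were at least 1.5-fold lower, against 0.607%. At 1.2-fold, 5 of the 80 were higher and 4 lower, against 11.5% and 2.72%. The 32 small subunit genes had a median of -0.16 and the 48 large subunit genes a median of -0.14. Most of the family thus stood slightly below 0 together, with a short tail of genes above 0.

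**Figure D2:**
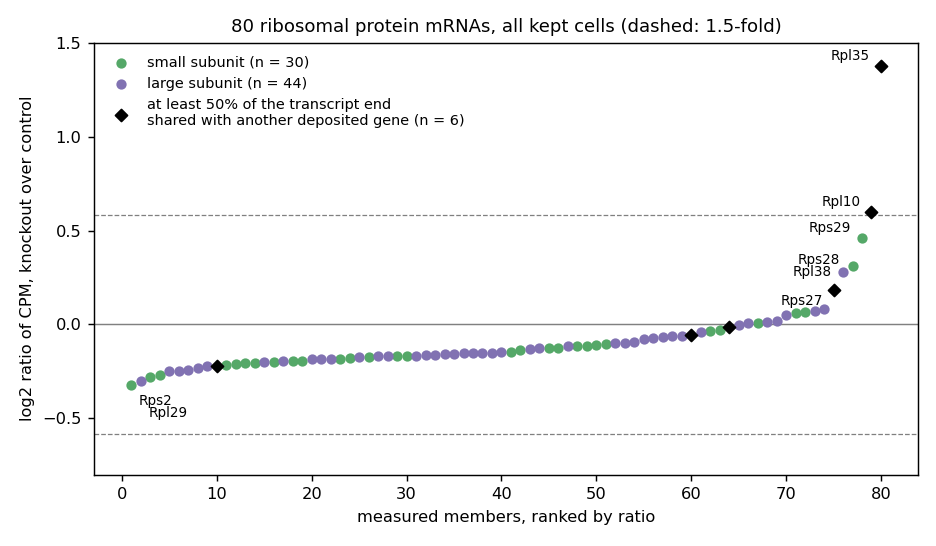
Log2 ratio of CPM, knockout over control, over all kept cells (vertical axis) for the 80 measured ribosomal protein genes in rank order (horizontal axis). Circles are small and large subunit genes, diamonds are the 6 genes that share at least 50% of their transcript end with another deposited gene, and dashed lines mark 1.5-fold; Rpl35 at 1.38 and Rpl10 at 0.60 are the 2 points above the upper line, and both are diamonds.

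The 8 lowest ratios belonged to genes of both subunits. Rps2, which lies where mRNA enters the small subunit, had 5378 CPM in control and 4303 CPM in knockout cells, a log2 ratio of -0.32 (-0.326 to -0.317). Rpl29 had 1887 and 1533 CPM, a log2 ratio of -0.30. Rps7 followed at -0.28, Rps4x at -0.27, Rpl28 and Rpl26 at -0.25, Rpl32 at -0.24 and Rpl15 at -0.23. These 8 genes were below 0 in each of the 7 compared gates, as were 53 of the 80 measured genes. The gates hold part of the cells by which the 8 were ranked, so this is no separate support. Rps2 ranged from -0.41 in the dendritic gate to -0.23 in the stem gate.

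At the other end, 8 genes had the highest ratios. Rpl35 (ENSMUSG00000062997), a protein at the exit of the large subunit's peptide tunnel, had 618 CPM (614 to 621) in control and 1604 CPM (1598 to 1611) in knockout cells, which is 2.60-fold higher. Rpl10 (ENSMUSG00000008682), which joins the large subunit late in its assembly and is mutated in some T cell leukemias, had 1250 and 1897 CPM, 1.52-fold higher. Its log2 ratio of 0.60 was 0.52 with median-of-ratios factors and 0.57 with a total free of ribosomal protein and mitochondrially encoded genes, both under 1.5-fold. Rps29, a small subunit protein named in some families with Diamond-Blackfan anemia, had 4273 and 5885 CPM, 1.38-fold higher. Rps28 had 3354 and 4169 CPM, a log2 ratio of 0.31. Rpl38, known for its part in the translation of Hox mRNAs, had 2571 and 3120 CPM, a log2 ratio of 0.28. Rps27 followed at 0.18. Rpl41 at 0.08 and Rpl6 at 0.07 complete the 8, and both were slightly below 0 when libraries were scaled by median-of-ratios size factors (0.00 and -0.01).

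Rps29, Rps28, Rpl38 and Rpl41 were among the shortest of the family. Their coding sequences have 171, 210, 213 and 78 bases. A set of 71 measured genes shared no transcript end with another deposited gene. Among them, the 8 with under 300 coding bases had a median log2 ratio of 0.06, and the 63 longer genes had a median of -0.16. Of those 8, Rps29, Rps28, Rpl38, Rps21 and Rpl37a were above 0 and Rpl37, Rpl39 and Rps27l were below it, while Rps21 and Rpl37a, at 0.07 and 0.05, lay within the 0.08 by which median-of-ratios scaling lowered each value. Across the 71 genes, log2 coding length and log2 ratio had a Pearson r of -0.42 and a Spearman rho of -0.23, a description over genes that share 2 libraries and are not independent. The split at 300 bases was chosen after the values were seen. In length groups of 23, 25 and 23 genes, shortest first, the same 71 genes had medians of -0.11, -0.17 and -0.15. The group of the 23 shortest genes was thus below 0, and the medians did not fall steadily with length.

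The higher Rpl35 level was spread over cells and gates and was not held by a few cells. Rpl35 was ranked highest over these same cells, so the spread is a description and no separate support. In the 7764 control and 5642 knockout cells with at least 1000 ribosomal protein UMIs, Rpl35 made up a median of 0.198% of them in control cells (5th to 95th percentile 0.0929% to 0.314%) and 0.557% in knockout cells (0.362% to 0.754%). Of the knockout cells, 97.4% lay above the 95th percentile of control cells. Each cell was then thinned to 3000 ribosomal protein UMIs, which left out 1152 control and 1812 knockout cells. After thinning, the median was 6 Rpl35 UMIs in control and 17 in knockout cells. Of the thinned knockout cells, 90.004% lay above the control 95th percentile of 11 Rpl35 UMIs. Cells of 1 library are not replicates, so this share is given without an interval. The corresponding unthinned share of knockout cells was 63.0% for Rpl10, 81.9% for Rps29, 15.8% for Rpl41 and 0.496% for Rps2, and the thinned shares were 51.1%, 71.1%, 13.8% and 0.537%.

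**Figure D3:**
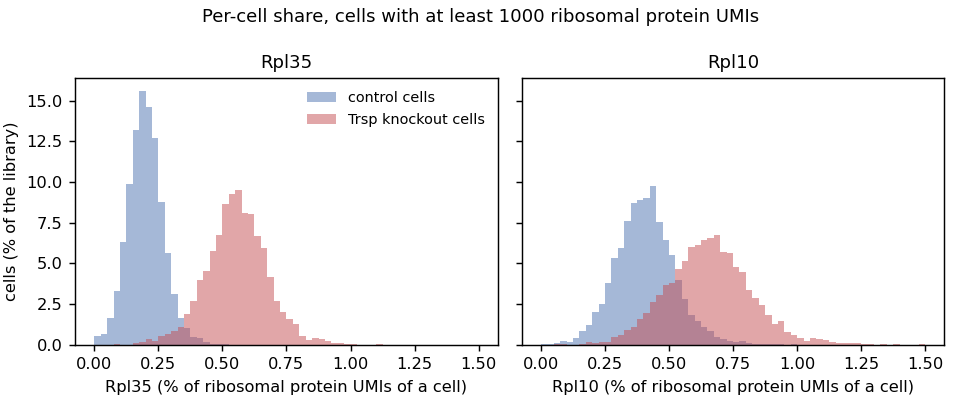
Share of cells (vertical axis, percent of the library) by the percent of a cell's ribosomal protein UMIs that came from Rpl35 (left) or Rpl10 (right), in control cells and Trsp knockout cells with at least 1000 such UMIs. The Rpl35 distributions barely overlap, with medians of 0.198% and 0.557%, whereas those of Rpl10 overlap, with 63.0% of knockout cells above the control 95th percentile.

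The Rpl35 log2 ratio lay between 1.32 in the early erythroid gate and 1.43 in the multipotent or lymphoid-primed gate. In barcodes that failed the filters, it was 1.32. Rpl10 lay between 0.53 in the early erythroid gate and 0.74 in the dendritic gate, and Rps29 between 0.37 in the early erythroid and 0.52 in the neutrophil progenitor gate. Rps28, Rpl38 and Rpl41 were also above 0 in each of the 7 gates, which gives 6 such genes. Another 53 were below 0 in each gate, and 21 were of mixed sign. The same count over the 7 gates was not made for all measured genes. The gates hold part of the cells by which the genes were ranked, so their signs are no separate support. In single gates, 32.3% to 49% of all measured genes were below 0.

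By gate, the genes at least 1.5-fold higher were Rpl35 in each gate and Rpl10 in 4 gates, and none was at least 1.5-fold lower in any gate. The stem gate had 1 of 80 higher (1.19% of its measured genes were higher and 0.8% lower), and the multipotent or lymphoid-primed gate had 2 (0.968% and 0.629%). The neutrophil progenitor gate had 2 (1.54% and 0.442%), and the monocyte progenitor gate had 1 (1.29% and 0.486%). The dendritic gate had 2 (7.1% and 2.63%), the basophil or mast gate had 2 (1.77% and 0.732%) and the early erythroid gate had 1 (3.78% and 3.36%). Ratios below 0 were found for 65 of 80 genes in the stem gate (49% of its measured genes were below 0 and 51% above), 68 in the multipotent or lymphoid-primed gate (42.5% and 57.5%), 60 in the neutrophil progenitor gate (32.3% and 67.7%) and 66 in the monocyte progenitor gate (32.8% and 67.2%). They were found for 65 in the dendritic gate (44.2% and 55.8%), 65 in the basophil or mast gate (45.9% and 54.1%) and 68 in the early erythroid gate (42.4% and 57.6%).

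Many ribosomal protein genes have near-identical copies elsewhere in the genome, and reads from the 3′ end cannot tell such a pair apart where their ends are the same. Among the deposited genes, 18 hold a copy of 13 of the ribosomal protein genes, by at least 90% identity over at least 80% of the coding sequence or by a shared stretch of 90 bases in the last 300 bases of the transcript. Rpl35 and Rpl10, the 2 genes past 1.5-fold, each have one, which is why their ends are shown. Rpl35 lies at chr2:39001580-39005624 on the minus strand and its copy Gm2000 at chr1:156366040-156366484. The coding sequences, of 372 bases, differ at 1 base, C117T (the base of Rpl35, its position counted from 1 at the A of the start codon, then the base of Gm2000). Rpl10 lies at chrX:74270812-74273135 on the plus strand and its copy Rpl10-ps3 at chr9:50344201-50344968, with 0 differences over 645 coding bases. Rps27, at chr3:90212522-90213651, and Rps27rt, at chr9:114982366-114982739, have 0 differences over 255 coding bases. The last 60 coding bases of each, which are the same in the copy, are given 5′ to 3′ from the GENCODE M21 transcripts of GRCm38 (mm10).
Rpl35 and Gm2000: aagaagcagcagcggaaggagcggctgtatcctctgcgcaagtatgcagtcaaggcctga
Rpl10 and Rpl10-ps3: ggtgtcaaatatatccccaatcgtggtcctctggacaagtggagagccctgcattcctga
Rps27 and Rps27rt: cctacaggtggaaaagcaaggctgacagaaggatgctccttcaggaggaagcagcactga

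The copies of these genes were assigned few UMIs, and theirs were lower in the knockout library. Gm2000 had 15265 UMIs in control and 9291 in knockout cells, a log2 ratio of -0.45 (-0.49 to -0.42), against 102799 and 222651 UMIs for Rpl35. Summed over Rpl35 and Gm2000 the log2 ratio was 1.24, so the higher Rpl35 count remained with the copy added. Rpl10-ps3 had 6002 and 2905 UMIs, against 208142 and 263278 for Rpl10, and the sum had a log2 ratio of 0.58, just under 1.5-fold. Rps27rt had 18568 and 7549 UMIs, and Rps27 with Rps27rt had a log2 ratio of 0.13. Since 95.3% of the end stretches of Rpl35 and 100% of those of Rpl10 and Rps27 are also found in the copy, the split of UMIs within these 3 pairs is uncertain, and how the authors' counting treated reads that fit both genes was not tested.

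Rpl9 and Rpl36a showed the same arrangement with ratios near 0. Rpl9-ps6, at chr19:32465865-32466578, differs from Rpl9 by G266A over 579 coding bases. It had 16275 and 5235 UMIs, a log2 ratio of -1.37, while Rpl9 stood at -0.06 and the sum at -0.08. Rpl36a, at chrX:134585654-134588062, and Rpl36a-ps1, at chr14:98993870-98994318, differ at 7 of 321 coding bases. Positions 91 to 150 hold 5 of these differences, which are in capitals, and show that the letters of this pair can be told apart there, whereas their last 60 coding bases are the same.
Rpl36a: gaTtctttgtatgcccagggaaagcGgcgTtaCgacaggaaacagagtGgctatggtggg
Rpl36a-ps1: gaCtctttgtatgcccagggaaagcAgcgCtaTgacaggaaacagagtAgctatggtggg

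Rpl36a-ps1 had 9020 and 3633 UMIs, a log2 ratio of -1.05, while Rpl36a stood at -0.01 and their sum at -0.03. Of the 10 copies with at least 1000 UMIs over both libraries, 8 had lower CPM in knockout cells, against 31.9% of all measured genes. Of these 8, 6 were at least 1.5-fold lower, against 0.607% of all measured genes. The others among these were Wdr89, whose annotated locus holds a copy of Rplp2 (12433 and 4271 UMIs, -1.28), Gm6133, a copy of Rpl17 (2191 and 730 UMIs, -1.32), and BC004004 with a copy of Rpl21 (-0.20). Gins1, whose locus holds a copy of Rpl41, stood at 0.11. Their parent genes stood at 0.02 for Rplp2 (-0.06 with median-of-ratios scaling), -0.07 for Rpl17 and -0.22 for Rpl21. The 6 measured genes with at least 50% of their end stretches in another deposited gene, Rps18 at -0.22 being the remaining one, had a median of 0.09. The 71 with none, which leave out Rpl35 and Rpl10, had a median of -0.15, and 0 of those 71 were past 1.5-fold. Of all measured genes, 1.02% were at least 1.5-fold higher and 0.607% lower. Genes with a copy whose end differs, such as Rplp2, are among these 71.

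Rpl41 encodes the shortest protein of the ribosome, and its copy Gm10076 had the highest ratio of the 10 copies with at least 1000 UMIs. Gm10076, annotated as a long intergenic RNA at chr14:105681828-105682211, had 11997 UMIs in control and 56258 in knockout cells, that is 72.1 and 405 CPM. Its log2 ratio of 2.49 was the only one at least 1.5-fold higher among the 10 copies, against 1.02% of all measured genes. By gate, the ratio lay between 2.38 in the early erythroid gate and 2.76 in the dendritic gate. Rpl41 had 924998 and 817094 UMIs, and the sum of Rpl41 and Gm10076 had a log2 ratio of 0.16. Of the end stretches of Rpl41, 37.0% are also in Gm10076. Both contain the whole coding sequence of Rpl41, with 0 differences over its 78 bases.
Rpl41 (chr10:128548114-128549305) and Gm10076: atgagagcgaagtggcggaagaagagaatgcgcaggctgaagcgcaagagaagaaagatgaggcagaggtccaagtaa

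**Figure D4:**
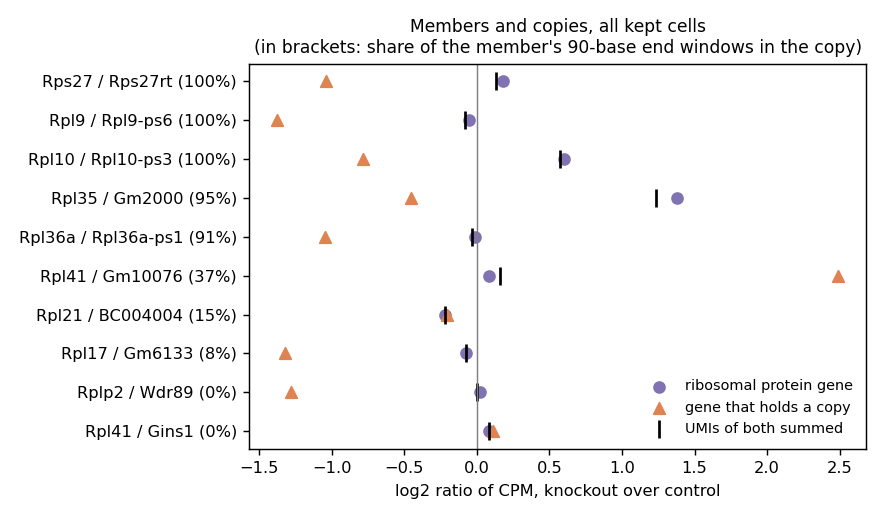
Log2 ratio of CPM, knockout over control, over all kept cells (horizontal axis) for ribosomal protein genes (circles), genes that hold a copy of them (triangles) and the summed UMIs of each pair (bars), for the 10 copies with at least 1000 UMIs (vertical axis, with the share of the gene's 90-base end stretches found in the copy). Most triangles lie left of 0, Gm10076 stands at 2.49, and each bar lies close to its circle; for Rpl41 and Rplp2 the circle falls below 0 with median-of-ratios scaling.

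The transcription start sites in RefSeq (GRCm38.p6) were searched for the TOP letters, a C at the start followed by at least 4 pyrimidines on the sense strand, for the 64 ribosomal protein genes that matched the promoter table. The letters were found exactly at the start of 14 of the 64 (21.9%), against 2.96% of 26961 other genes. Within 5 bases of the start the shares were 46.9% and 21.1%, and within 10 bases 62.5% and 34.3%. The start sites of 3 genes of the upper end and the lowest gene are shown with 15 bases before and 15 after the start, and capitals mark the C and its run of pyrimidines.
Rpl35 (chr2:39005117-39005146, minus strand): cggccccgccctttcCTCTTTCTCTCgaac
Rpl38 (chr11:114668565-114668594, plus strand): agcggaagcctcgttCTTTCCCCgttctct
Rps27 (chr3:90213634-90213663, minus strand): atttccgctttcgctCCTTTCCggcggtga
Rps2 (chr17:24720048-24720077, plus strand): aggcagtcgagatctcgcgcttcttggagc

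The window of Rps2 holds no such run exactly at its listed start but holds one within 5 bases after it, so it meets the looser criterion. Rpl35, with a log2 ratio of 1.38, and Rps27, at 0.18, both begin with the letters. The genes shown were picked, and whether the letters go with the ratio over the matched genes was not tested.

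Several ribosomal proteins have paralogs. Rpl22, which early T cell development requires, had 2493 and 2225 CPM (log2 ratio -0.16), and its paralog Rpl22l1 had 929 and 892 CPM (-0.06). Rps27 had 1746 and 1982 CPM, and Rps27l, a target of p53, had 636 and 562 CPM (-0.18). Rpl7 had 2682 and 2419 CPM (-0.15), and Rpl7l1 had 104 and 91.7 CPM (-0.18). Rpl3 had 3055 and 2858 CPM (-0.10), while Rpl3l, its paralog in heart and skeletal muscle, had 70 and 62 UMIs in all (0.421 and 0.447 CPM), and the interval of its log2 ratio spanned 0 (-0.43 to 0.60). Rpl39 had 4328 and 4109 CPM (-0.08), and Rpl39l, known from the testis, had 72 and 35 UMIs (-0.78, -1.40 to -0.18). In each pair the family's main gene was the more abundant in both libraries. The X-linked genes Rpl10, Rpl36a, Rpl39 and Rps4x stood at 0.60, -0.01, -0.08 and -0.27.

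The 9 genes of a Diamond-Blackfan anemia list had a median of -0.13, close to the -0.15 of the whole family. All 9 were below 0, as were 65 of the 80 family members and 31.9% of all measured genes. The list leaves out Rps29 and Rps28, also named in the disease, which stood at 0.46 and 0.31. Rps19, the gene most often mutated in that disease, had 5354 CPM in control and 5246 CPM in knockout cells (-0.03). Rpl11 had 3452 and 3314 CPM (-0.06). The interval of Rpl5 spanned 0 (2216 and 2210 CPM, -0.01 to 0.00). Rps26 stood at -0.11, Rpl35a at -0.16, Rps24 at -0.18, Rps10 at -0.21 and Rps7 at -0.28. Of these, Rps10, Rps7, Rps24, Rps26, Rpl11 and Rpl35a were below 0 in each of the 7 gates. Rps19 was above 0 in the neutrophil progenitor and dendritic gates (0.04 and 0.01), and Rpl5 in the neutrophil and monocyte progenitor gates (0.06 and 0.01). In the early erythroid gate, values were -0.33 for Rps7, -0.27 for Rps24 and -0.08 for Rps19. The proteins of the P stalk, which recruits elongation factors to the large subunit, had 4413 and 3881 CPM for Rplp0 (-0.19), 6147 and 5616 CPM for Rplp1 (-0.13) and 3970 and 4023 CPM for Rplp2.

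The gates differed in the proportions of their ribosomal protein mRNAs, and the highest and lowest gates of a gene were mostly the same in both libraries. Of the 80 genes, 57 had the same highest gate in both libraries and 67 the same lowest gate. Rps27l varied most: its share of the ribosomal protein UMIs was 0.246% in the early erythroid and 0.132% in the stem gate of the control library, and 0.288% and 0.119% in the knockout library. Rps2 was also highest in the early erythroid gate (2.16% in control, 1.99% in knockout) and lowest in the dendritic gate (1.25% and 1.001%). Rpl22l1 was highest in the neutrophil progenitor gate (0.338% in both libraries) and lowest in the dendritic gate (0.183% and 0.201%). Rpl13a, which is also part of an interferon-dependent translational silencing complex, was highest in the dendritic gate (1.59% and 1.63%) and lowest in the neutrophil progenitor gate (0.938% and 1.06%).

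**Figure D5:**
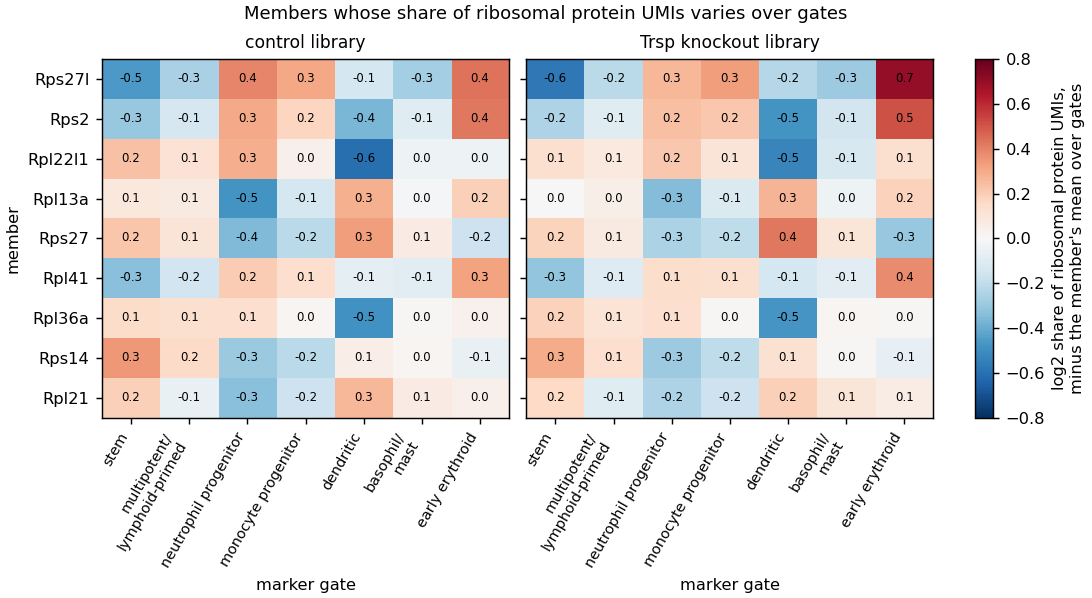
Log2 share of ribosomal protein UMIs minus the gene's mean over gates (color and printed value) for 9 genes among those that vary most over gates in the control library (rows) in 7 marker gates (columns), in the control library (left) and the Trsp knockout library (right). The panels have like patterns, with Rpl36a at -0.5 in the dendritic gate of both and Rps27l at 0.4 in the early erythroid gate of the control and 0.7 of the knockout library.

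Over all kept cells, the medians of related gene lists lay closer to 0 than that of the ribosomal proteins, and in each of the 5 lists 0 genes were past 1.5-fold, against 1.02% of all measured genes higher and 0.607% lower. The 19 other mRNAs of the TOP class, translation factors and their partners, had a median log2 ratio of -0.06, and 13 were below 0, against 31.9% of all measured genes. This list includes small subunit proteins that the symbols do not catch: Fau had 4554 and 3955 CPM (-0.20) and Rack1 had 2474 and 2487 CPM (0.01). The elongation factor Eef1a1 stood at 0.01 and Eef2 at 0.03. The 28 ribosome biogenesis factors had a median of -0.02, from -0.30 for the helicase Ddx21 to 0.35 for Utp4. By gate, their median was further below 0 than that of the ribosomal proteins in the stem gate (-0.19 against -0.12), the dendritic gate (-0.22 against -0.12) and the basophil or mast gate (-0.18 against -0.14). In the early erythroid gate it was 0.28, against -0.15. The 11 measured RNA polymerase I genes had a median of 0.10, near the 0.08 of all measured genes, and the 10 chaperones and import factors of ribosomal proteins a median of 0.05. Of the 14 measured regulators of TOP mRNAs and of the ribosomal protein checkpoint, 12 were above 0, against 68.1% of all measured genes, and their median was 0.13, against 0.08. Among them, Larp1 stood at 0.23, Myc at 0.31, Mdm2 at 0.13, Trp53 at 0.10 and Cdkn1a at 0.14. The last of these, the p53 target that halts the cell cycle, had 36.6 CPM in control and 40.2 CPM in knockout cells.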

How the data were processed

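The deposited values are raw counts of UMIs by gene and barcode. Cell Ranger 6.1.2 and mm10 are named in the submitters' processing notes, and the 10x Chromium 3′ v3.1 kit in the labels' protocols. No source used here states the annotation release, strand setting or cell calling. The control file held 14372 barcodes and 184683653 UMIs, the knockout file 11556 and 152092210, and they shared 39 barcode sequences.

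Filters required 500 genes and a mitochondrial share under 10% (8192 and 6706 barcodes passed). Doublets predicted by Scrublet (scanpy 1.11.5; expected rate 10%, automatic thresholds) numbered 146 (1.78%) and 52 (0.775%) and were removed. A cell entered the gate of 1 of 15 marker sets if its mean marker z-score of log-transformed counts per 10000, capped at 5, was at least 0.5 and led the next by 0.25, with at least 3 markers detected. This gated 68.3% of control and 59.7% of knockout cells. A gate is a range of a score, not a cell type. From 2 cells (early erythroid, control) to 160 (neutrophil progenitor, control) of a compared gate lay near its limit. The scoring rule was set after the files were seen.

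UMIs were summed per library and gate and divided by their total. Sums have Poisson, shares Clopper-Pearson and ratios conditional binomial 95% intervals, checked on simulated data. No test was made, since each genotype has 1 library. Genes named are the 8 highest and 8 lowest ratios, paralogs, Diamond-Blackfan genes, the 5 most variable over gates and genes with a copy of at least 1000 UMIs. Some genes that this rule takes are not reported here. Other names complete a small count or list, or give its extremes or best known genes, and were picked after values were seen. Copies were found with blastn 2.17.0 by coding nucleotides, since protein sequences were not used here. The genes and lists were chosen with earlier results of these data known. Alternatives covered filters, doublets, depth, scaling, copies, gates and the fold threshold.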

Additional observations from a re-analysis of the deposited data

Results flagged for a closer look

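The gate of plasma or mature B markers, which was not compared because it held 69 control cells, went against the compared gates. Its ribosomal protein share was 12.0% in control and 22.8% in knockout cells, a log2 ratio of 0.93. All 80 measured ribosomal protein genes were above 0, with a median log2 ratio of 0.92. The median over all 5073 measured genes of this gate was 0.82, so most of its genes were above 0 as well. Median depth was 23737 UMIs in its control cells and 4373 in its 187 knockout cells, of which 103 had under 5000 UMIs. The gate's immunoglobulin mRNAs were lower in its knockout cells, at 280036 and 120479 CPM for Igkc, 124925 and 70738 CPM for Ighm and 27118 and 13853 CPM for Jchain, and their part in the share was not tested. The difference from the other gates was not tested.

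Gm10076, which is outside the ribosomal protein set, had a log2 ratio of CPM of 2.49 (72.1 and 405 CPM), far above that of the gene it copies, Rpl41.

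Rpl35 was also higher in the barcodes that failed the filters, with a log2 ratio of 1.32 there against 1.38 in kept cells. Those barcodes had median mitochondrial shares of 38.1% in the control and 51.3% in the knockout file. Across the 80 measured genes, ratios in kept and failed barcodes had a Pearson r of 0.94 and a Spearman rho of 0.72. Across the 71 without a shared end stretch, r and rho were 0.81 and 0.66. Both are descriptions over genes of the same 2 libraries.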

How the results depend on the processing

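The log2 ratio of the ribosomal protein share over all kept cells, -0.102, left its counting interval under each alternative while remaining below 0. It was -0.102 under a filter of 1000 genes and 5% mitochondrial UMIs, -0.102 with predicted doublets kept, -0.103 with at least 5000 UMIs, -0.102 with copies added to their parent gene, -0.0933 of UMIs not mitochondrially encoded, -0.124 as the ratio of per-cell medians and -0.117 without genes that share an end stretch, an alternative chosen after seeing the data. By gate, 49 of 49 values under the alternatives were below 0, from -0.14 to -0.06. The median over genes, -0.15, was -0.23 with median-of-ratios size factors, -0.18 with a total free of ribosomal protein and mitochondrially encoded genes, and -0.15 without genes that share an end stretch. The 2 genes past 1.5-fold became 1 with copies added, 1 with median-of-ratios factors, 1 with the reduced total, 0 without genes that share an end stretch and 9 at 1.2-fold. Rpl10 was the gene lost in each of the first 3 cases. The count of 0 was fixed in advance, since that alternative leaves out both Rpl35 and Rpl10. Of 40 named genes, 4 changed sign with median-of-ratios factors (Rpl41, Rpl6, Rplp2 and Rpl13a) and 2 with the reduced total (Rplp2 and Rpl13a). The largest shift, 0.49 under the stricter filter, was that of Rpl39l. No paired analysis was possible because each genotype has 1 library. Intervals cover counting error only, and 1 library per genotype leaves the spread between animals unmeasured, so that library and genotype cannot be told apart.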
